A study of Chlorella vulgaris with 6 samples.

Results

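The mutant UV-715 of the green alga Chlorella vulgaris was compared with its parent strain SAG 211-12 (wild type, WT) in stationary phase. The comparison covered every assembled transcript feature with a normalised signal of at least 1 in at least 2 of the 4 libraries of these strains, which were 17478 of the 18600 features deposited (94.0%). Per the labels, UV-715 descends from wild-type cells that were spread on solid Bold's basal medium, irradiated with UV light of 254 nm for between 0.5 and 10 minutes, kept in the dark for 24 h and picked as single colonies, so the mutant represents 1 isolate. The series title describes the mutants as high in lipid. Both strains were grown in Bold's basal medium at 25 °C under continuous light without further treatment, and RNA came from 5 ml of culture at day 14, at an optical density of 5 at 680 nm. There were 2 libraries per strain. A second mutant, EMS-25, labelled as an EMS mutant of the same strain, also had 2 libraries, which entered the fit for the estimate of spread and are given beside some values.

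Chlorella vulgaris is a unicellular green alga that fixes carbon in a single cup-shaped chloroplast. When nutrients run short and growth stops, cells redirect carbon from membranes and protein towards storage compounds, starch and triacylglycerol, the neutral lipid held in lipid droplets. Fatty acids are made in the chloroplast and are assembled into triacylglycerol on a glycerol backbone. UV light of this wavelength joins neighbouring pyrimidines in DNA, and errors made at these lesions leave scattered mutations, while darkness keeps photolyase, a light-driven repair enzyme, from reversing the lesions. A colony that grows from such a cell can carry several mutations at once. Which genes are altered in UV-715 is not given in the sources used here.

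The deposited features carry assembly IDs and no gene names, and no annotation, sequence or reference was used here. The transcripts below are therefore described by their level, their neighbours in the assembly and their behaviour in each library, and nothing can be said of lipid enzymes or any other pathway. An ID names a cluster of sequences that share stretches, a component within it and a gene within that, in the form the Trinity assembler writes. The labelled organism and cell type could not be checked against marker genes for the same reason.

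Library sums of the 4 libraries ran from 970974 to 1017836. Absolute depth is unknown, but the steps between low values give the relative depth: a single fragment was worth 4.09 times as much signal in WT replicate 2 as in WT replicate 1, against 0.953 times in UV-715 replicate 1 and 2.01 times in UV-715 replicate 2. The replicate 2 libraries were thus the shallower ones, and WT replicate 2 was the shallowest. It listed 4177 features at 0, where WT replicate 1 listed 1376, UV-715 replicate 1 listed 1406 and UV-715 replicate 2 listed 2826. The part of this depth gap in the results on low features was not tested. Libraries of a strain are labelled as biological replicates with no mention of separate cultures. What the p-values weigh is therefore the variation among libraries, part of which may be technical. With 2 libraries against 2, an exact permutation test of a single feature cannot give a two-sided p below 0.333, so the tests below come from the limma fit across all features.

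Of all features tested, 780 (4.46%) passed the test between UV-715 and WT, with 350 higher (2.00%) and 430 lower (2.46%), at a Benjamini-Hochberg adjusted p under 0.05 by limma. Before adjustment, 3610 features had a p under 0.05. The direction was the same in both libraries for all 780, in the sense that both libraries of one strain lay above both of the other, while this was also true of 51.8% of all features tested. Most calls were modest. Of the 335 higher features that were above 0 in both strains, 102 (30.4%) were at least 2-fold higher and the median ratio of means was 1.62. Of the 404 such lower features, 144 (35.6%) were at least 2-fold lower and the median ratio was 1.69. The other 41 calls, 15 higher and 26 lower, were listed at 0 in both libraries of a strain. The number of calls rested on each library: it was 489 without WT replicate 1, 220 without WT replicate 2, 3 without UV-715 replicate 1 and 4 without UV-715 replicate 2. Leaving out EMS-25 replicate 1 or 2 gave 487 or 485, and 489 were called in a fit of wild type and UV-715 alone. Between UV-715 and EMS-25, 834 features (4.77%) passed the same test.

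**Figure D1:**
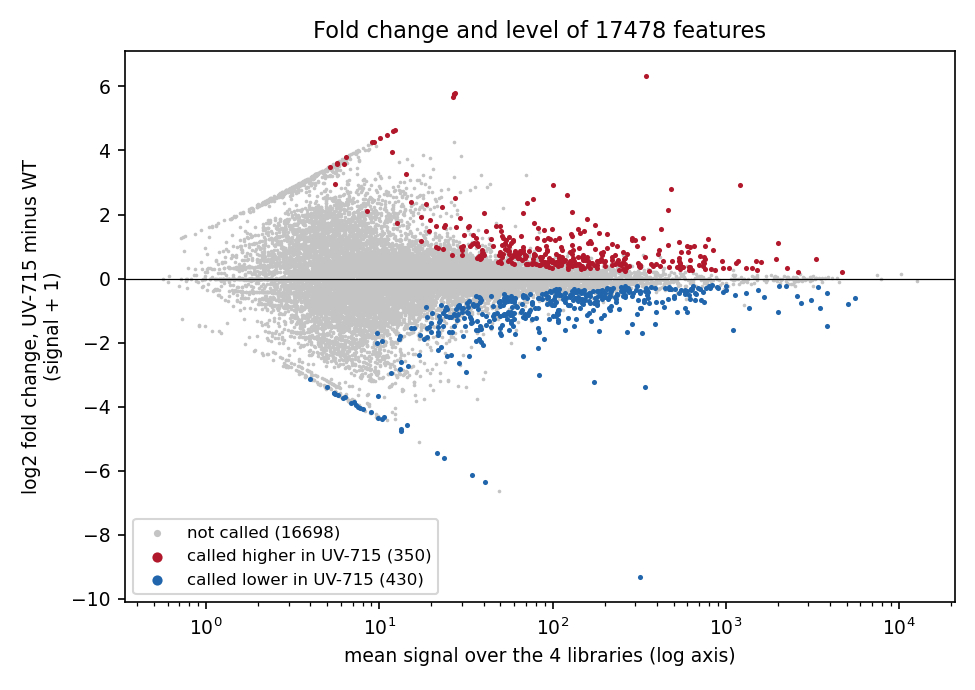
Mean signal over the 4 libraries of WT and UV-715 (log axis) against the log2 fold change of the signal plus 1 (UV-715 minus WT) for 17478 features, with 350 called higher in red, 430 called lower in blue and the rest in grey. Calls of small fold appear only at high level, and the straight edges at low level are features listed at 0 in a strain.

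Calls were spread unevenly over expression level. No feature with a mean under 3 was called, and 28 of 6232 (0.449%) were called at means of 3 to 10. The share rose to 1.74% at 10 to 30, 7.89% at 30 to 100, 21.4% at 100 to 300 and 36.5% at 300 to 1000, and was 25.2% of the 135 features at 1000 or more. The median standard error of the log2 fold change fell over the same classes from 0.88 at 3 to 10 to 0.04 at 1000 or more, and the smallest change that was called fell from 1.69 to 0.21 on the log2 scale. A missing call at low level therefore says little about the transcript. Lower calls outnumbered higher ones in each class that had calls, with 19 against 9 at 3 to 10, 60 against 30 at 10 to 30, 134 against 126 at 30 to 100 and 19 against 15 at 1000 or more. This balance turned under other settings: over all classes there were 305 higher and 184 lower calls without WT replicate 1, 445 and 417 without a filter, 443 and 439 with libraries scaled to the same sum and 42 and 38 when a change beyond 1.5-fold was asked for. They were 122 and 56 without the intensity trend, that is, with the same prior spread for features of every level.

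The transcripts that gained most signal in UV-715 included a group that stood several times above wild type. TRINITY_DN5473_c0_g1 gained most. Its signal was 290 and 268 in the WT libraries and 2150.2 and 2121 in those of UV-715, and EMS-25 had 1409 and 1367. Its UV-715 libraries lay far above both wild-type libraries and also above both of EMS-25. The rise was 7.65-fold (log2 fold change 2.93, SE 0.05, limma adjusted p 4.08e-05). TRINITY_DN5968_c0_g1 came next, at 1336 and 1180.4 in WT and at 2837 and 2626 in UV-715, while EMS-25 had 1132 and 981. Here EMS-25 did not stand between the other strains but slightly below wild type. The rise in UV-715 was 2.17-fold (log2 fold change 1.12, SE 0.09, limma adjusted p 0.00416), and the call was lost without UV-715 replicate 1 (adjusted p 0.103) or replicate 2 (0.101).

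**Figure D2:**
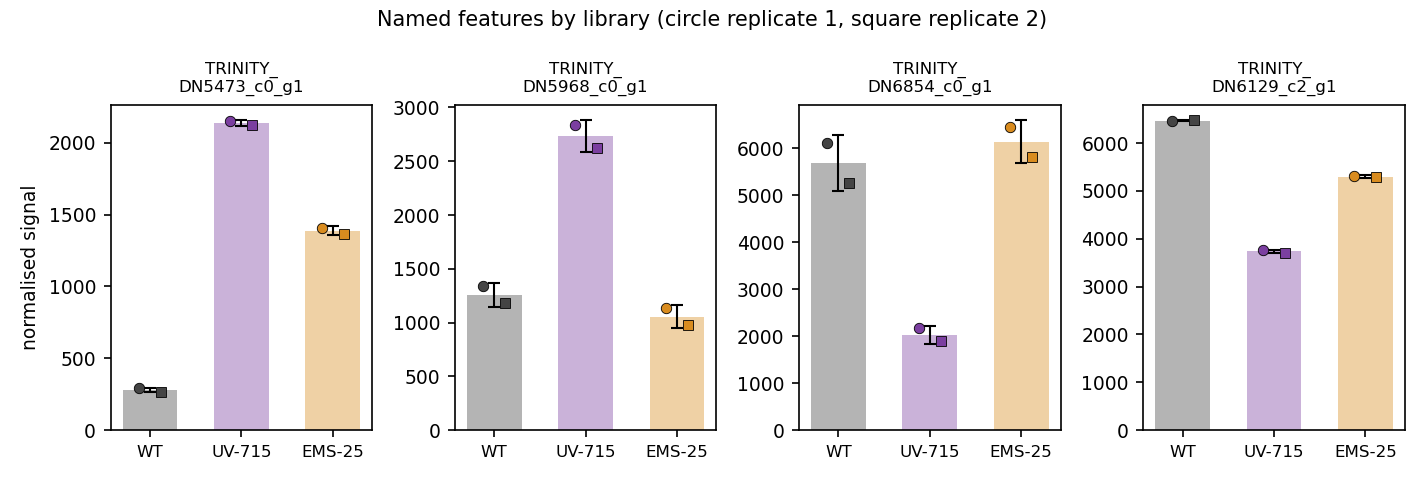
Normalised signal of the 4 named features in each library of WT, UV-715 and EMS-25. Bars are means and error bars the SD of 2 libraries, circles are replicate 1 and squares replicate 2. In every panel the UV-715 libraries lie apart from both WT libraries, which the choice of features required.

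The other 8 of the 10 largest gains are given without IDs. The fifth had 123 and 117 in WT and 851 and 833 in UV-715, a 6.995-fold rise. The ninth had 173 and 168 in WT and 761 and 760.4 in UV-715, a 4.46-fold rise. Together with TRINITY_DN5473_c0_g1 these were the gains among the 10 whose calls held under each library left out in turn and under each other alternative run, with log2 fold changes that moved by at most 0.06. The eighth had 490.3 and 459.8 in WT and 1117 and 1112 in UV-715, a 2.35-fold rise. The third, the fourth and the tenth were abundant in both strains and rose by less: the third from 2542 and 2714 to 4037 and 4042, the fourth from 1598 and 1489 to 2373 and 2301, and the tenth from 1313 and 1311 to 1932 and 1848. Their ratios were 1.54, 1.51 and 1.44. The seventh rose by 15.5%, from 4315 and 4369 to 4999 and 5028 (limma adjusted p 0.0365), and lost its call whichever of the 6 libraries was omitted (adjusted p 0.0735 to 0.324). The sixth differed from the rest in its neighbour. It had 7.67 and 7.15 in WT and 802 and 569 in UV-715, while the other feature of its component had 1672 and 1591 in WT and 842 and 1011 in UV-715. The component sum had an adjusted p of 0.801, so the rise of this feature is no rise of the component. The other 9 gains were each alone in their component.

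The losses were led by transcripts that rank among the most abundant of the wild type. TRINITY_DN6854_c0_g1 had 6111 and 5269 in WT against 2168 and 1888 in UV-715, and EMS-25 had 6463 and 5821. Its UV-715 libraries lay below all 4 others. Wild type stood 2.81-fold above UV-715 (log2 fold change -1.49, SE 0.10, limma adjusted p 0.00241). TRINITY_DN6129_c2_g1 had 6461 and 6473 in WT against 3762 and 3708 in UV-715, and EMS-25 had 5315 and 5285. All UV-715 values were again the lowest, and the replicates of each strain lay close together. Wild type stood 1.73-fold above UV-715 (log2 fold change -0.79, SE 0.03, limma adjusted p 0.000974). The second feature of its component was scarce and also fell, from 42.8 and 88.1 to 14.1 and 13.3 (adjusted p 0.0298). Neither named loss passed the test when UV-715 replicate 1 or replicate 2 was omitted (adjusted p 0.0713 to 0.0970 by limma), with log2 fold changes between -1.59 and -1.39 for the first and between -0.80 and -0.78 for the second.

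Of the other 8 large losses, the third had 6884 and 6654 in WT and 4537 and 4296 in UV-715, a ratio of 1.53. The fourth had 4734 and 4386 in WT and 2527 and 2344 in UV-715, a ratio of 1.87. All 10 losses were chosen among features whose strains did not overlap, so the gap between the strains is no result in itself. The fifth fell from 3541 and 3292 to 2052 and 1952, and the second feature of its component fell with it, from 519 and 469 to 301 and 294 (limma adjusted p 0.00441). Across all features described here, 9 other members of a component were called, not all of them lower, and 8 of these lost their call without the intensity trend. Over all features tested 4.46% were called. The 9 were reached through described features, and several share the component of the ninth loss, so their count is a description only. The seventh fell from 2749 and 2614 to 1328 and 1296 (2.04-fold), while another feature of its 6-feature component rose from 122 and 133 to 164 and 174 (adjusted p 0.0314). The component sum, with 2959 and 2811 in WT and 1531 and 1490.3 in UV-715, was still lower in the mutant (limma adjusted p 0.000740). The ninth had the widest ratio among the 10, 3.02, falling from 1817 and 1500.2 to 633 and 467. The sixth, the eighth and the tenth had 3012 to 4544 in WT and 2060.3 to 3325 in UV-715, with ratios of 1.59, 1.36 and 1.47. None of the 10 losses, both named ones included, passed the test when UV-715 replicate 1 or replicate 2 was omitted, or without the intensity trend (adjusted p 0.0541 to 0.203 by limma). The ninth also lost its call without WT replicate 1 (adjusted p 0.0564) or replicate 2 (0.0596), and 8 of the 10, TRINITY_DN6129_c2_g1 among them, did so in a test against a 1.5-fold change.

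**Figure D3:**
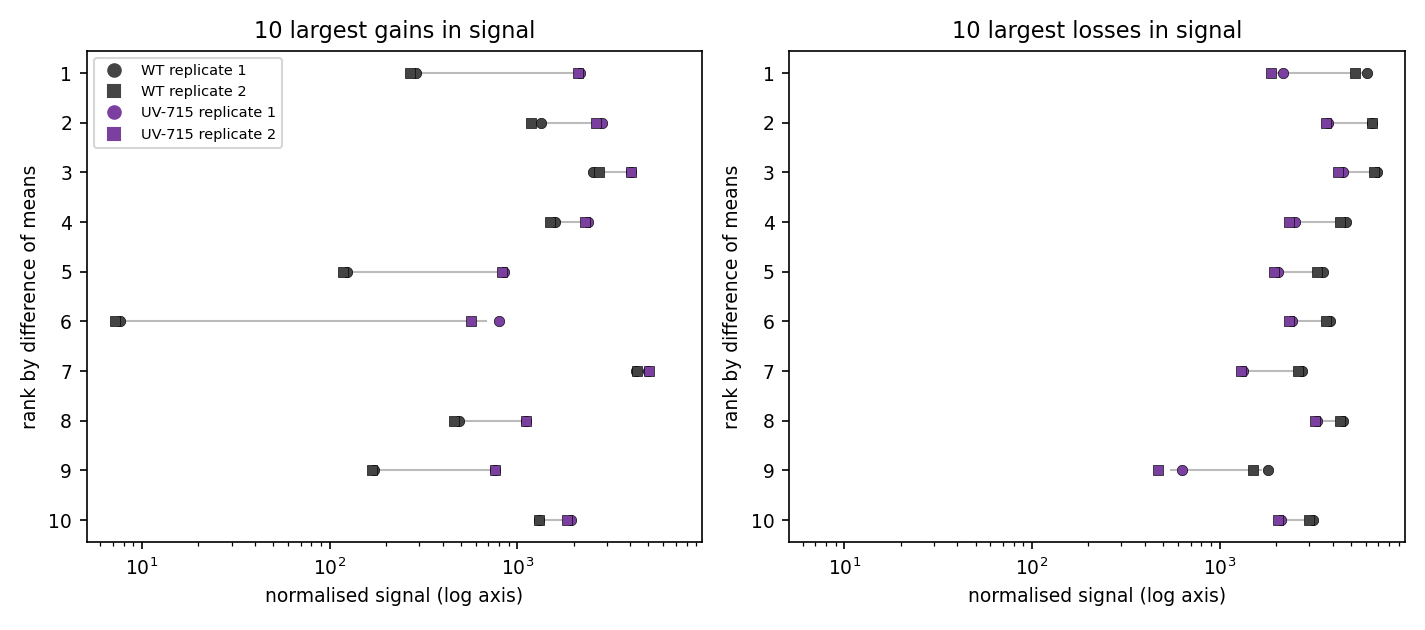
Normalised signal (log axis) of the 10 features with the largest gain and the 10 with the largest loss in mean signal, in the libraries of WT (dark) and UV-715 (purple), ranked by the difference of the means. Circles are replicate 1 and squares replicate 2; the gains run from 1.15-fold to 92.5-fold and the losses from 1.36-fold to 3.02-fold.

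The called features differed widely in how much of the moved signal they carried. The 350 higher features carried 6.82% of the WT signal and 10.95% of that of UV-715, and the 10 largest gains made up 24.0% of that increase. The 430 lower ones carried 14.2% of the WT signal and 9.20% of that of UV-715, and the 10 largest losses made up 35.0% of the decrease. It took 39 of the higher and 28 of the lower features to reach 50 percent of the moved signal in their direction. Signal was uneven in general too: the 135 features in the class from 1000 upward held 33.1% of it. The lists of 10 were ranked by the same difference whose share is given, which favours high shares. The gains among them include the sixth, whose component sum was not called. Whether moved signal was more concentrated than signal as a whole was not tested. Since library sums are fixed close to a common total, a gain in some transcripts and a loss in others are not independent of each other.

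Among the 10 most abundant features, 3 were called and the other 7 were not, a share near the 25.2% called among all 135 features at 1000 or more. This ranking takes the signal to be scaled by transcript length, as its form has it, which no source used here states. The called ones were the third loss, TRINITY_DN6129_c2_g1 and the seventh gain. The most abundant feature of all had 13570 and 12474 in WT and 12802 and 12047 in UV-715, so that its libraries overlapped between the strains, with a log2 difference of -0.07 (95% interval -0.23 to 0.10). The second had 9848 and 9674 in WT and 10702 and 10709.9 in UV-715, with a log2 difference of 0.13 (0.04 to 0.23, limma adjusted p 0.123). It did not overlap between strains and yet missed the threshold. The 95% interval of the difference lay within 0.5 log2 units of 0, that is within 1.41-fold, for 8 of these 10.

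The same bound was applied to all 1612 features with a mean of at least 100, which carried 68.8% of the signal. The interval lay within 0.5 log2 units of 0 for 1028 of them (63.8%), and these carried 50.5% of the WT signal and 50.9% of that of UV-715. This set includes 73 called features, which passed the test with small changes. In the rest, 329 were called and 255 had neither a call nor a narrow interval. Of all features at this level 402 were called (24.9%), 185 higher and 217 lower. The count of narrow intervals was 533 without the intensity trend in the fit.

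Pairs of same-numbered libraries allow a look at values that the choice did not use. No label pairs the libraries, and deviations of same-numbered WT and UV-715 libraries correlated by 0.39 at means of at least 100. Deviations shared in this way cancel within a ratio, which brings the pairs closer together. Crossed pairs were not tested. Features were chosen on the replicate 1 libraries alone, for a mean of at least 100 and a difference of at least 2-fold between UV-715 and WT, and then read in the replicate 2 libraries. Of the 40 features chosen as higher (2.45% of 1630), all 40 were also higher in the replicate 2 pair and 32 were again at least 2-fold higher, with a median log2 ratio of 1.28 after 1.25 in the choice. Of the 30 chosen as lower (1.84%), all 30 were lower in the replicate 2 pair and 26 at least 2-fold lower, with a median of -1.29 after -1.20. Over all 1630 features, 83.7% had the same sign in both pairs. With the roles exchanged, 36 of 37 higher features (2.35% of 1576) and 36 of 36 lower ones (2.28%) kept their direction in the replicate 1 pair. At a mean of at least 30, 98 of 103 higher and 125 of 133 lower features chosen in the replicate 1 pair kept their direction, and 122 of 136 and 175 of 198 of those chosen in the shallower replicate 2 pair, where 77.0% of all features at this level had the same sign in both pairs.

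**Figure D4:**
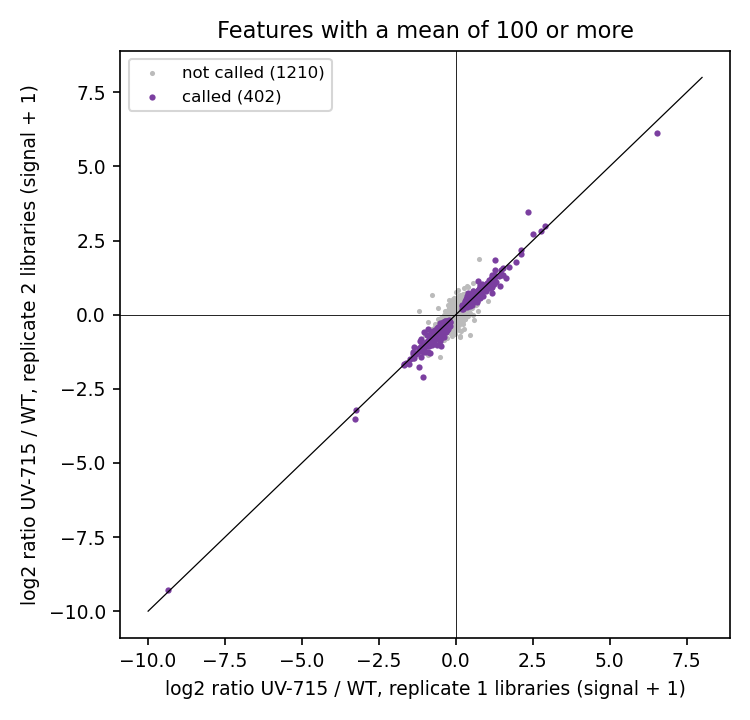
Log2 ratio of UV-715 to WT (signal plus 1) in the replicate 1 libraries against the same ratio in the replicate 2 libraries for 1612 features with a mean of at least 100 over the 4 libraries; 402 called features are purple, the rest grey, and the line marks equality. Most points far from 0 lie near the line, and grey points gather around 0.

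A few transcripts were on in one strain and listed at 0 in both libraries of the other. With at least 20 in both libraries of the first, there were 13 such features (0.0699% of the table), 5 listed at 0 in WT and 8 listed at 0 in UV-715. No fold is given against a strain at 0. Of the 5 seen in UV-715, one had 51.8 and 57.1 and another 57.3 and 50.0, and both were alone in their component and at 0 to 0.566 in EMS-25 (adjusted p 0.00972 and 0.00998 by limma). A further feature had 59.1 and 49.2 in UV-715 (adjusted p 0.00998), but the other feature of its component fell from 54.8 and 59.1 in WT to 7.21 and 6.16, and the component sum had an adjusted p of 0.745. In a further component the division differed between libraries of EMS-25 as well: its features had 0 and 0 in WT against 67.1 and 41.5 in UV-715, and 87.1 and 110.4 in WT against 0 and 0 in UV-715. Neither of this pair was called (adjusted p 0.0991 and 0.117). The last of the 5 had 71.1 and 35.1 in UV-715, and EMS-25 had 114 and 109 (limma adjusted p 0.00213). The other feature of its component had 63.1 and 61.4 in WT and 12.0 and 43.3 in UV-715 (adjusted p 0.232), and the component sum rose by 0.37 log2 units, from 63.1 and 61.4 to 83.1 and 78.4 (limma adjusted p 0.0339). That sum leaves out a feature of the same assembly cluster in another component, which went the other way. It had 48.1 and 46.8 in WT and 0 and 0 in UV-715, and is among those described next. A sum over the cluster was not tested.

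Among the 8 listed at 0 in UV-715, the most abundant had 658 and 624 in WT and 0.535 and 1.97 in EMS-25 (limma adjusted p 0.000974). Another had 97.8 and 65.2 in WT and was also listed at 0 in both EMS-25 libraries. A further one had 71.6 and 65.7 in WT and 6.51 and 5.32 in EMS-25. These 3 were low or at 0 in both mutants, and so was the feature with 48.1 and 46.8 in WT given below. Another had 40.1 and 45.5 in WT and kept 33.1 and 29.6 in EMS-25. One more had 35.1 and 32.3 in WT, and the other feature of its component had 46.8 and 51.7 in WT and 77.9 and 76.0 in UV-715 (adjusted p 0.0187), so that the component sum hardly moved, from 81.9 and 83.9 to 77.9 and 76.0 (adjusted p 0.713). The remaining features had 48.1 and 46.8, and 20.01 and 33.2, in WT (adjusted p 0.0225 and 0.0165), and EMS-25 had 2.86 and 0, and 4.04 and 10.1. Of the 13 features, 10 were called, and none of these passed the test when UV-715 replicate 1 or replicate 2 was omitted. The 13 were chosen by the same values that the test uses, so the count of calls among them is a description only. Among all features tested 4.46% were called. A threshold of 10 in place of 20 gave 75 features at 0 in one strain and one of 50 gave 5.

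Features of a component can divide the same reads between them, so the test was repeated on sums over components. Of 15036 component sums kept, 860 were called (5.72%), 388 higher (2.58%) and 472 lower (3.14%). Without UV-715 replicate 1 and 2 there were 40 and 43, without WT replicate 1 and 2 there were 572 and 315, and without EMS-25 replicate 2 there were 564. Of the 780 called features, 556 were alone in their component. Of the other 224, the component sum was called in the same direction for 157, called in the opposite direction for 1 and not called for 66. Where the sum was not called, the median size of the log2 fold change was 0.80 for the feature and 0.19 for the sum. In 12 cases a called feature shared its component with a call of the opposite direction. A further 166 component sums were called although no single feature of theirs was, of which 70 belonged to components of several features. The other 96 were features alone in their component, where the sum equals the feature. Their calls differ only because the fit and the adjustment ran over another set, so they are not gained by summing.

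Most assembly clusters with a call held a single one. The 18600 features deposited form 10997 clusters, many of them of few features. The 780 calls fell in 688 clusters, of which 624 held 1 call, 48 held 2 and 16 held at least 3. Whether calls gather in clusters was not tested. In the 48, both calls were higher in 14, both were lower in 22 and they were opposite in 12. Of the 16, all calls were lower in 9, all higher in 1 and mixed in 6. The largest clusters among the 16 had 6 calls in 68 features kept, 3 in 67 and 3 in 59. Over all features tested 4.46% were called, and the 16 were picked for their calls. The 3 clusters described next were chosen after their values were seen, and whether members are pieces of 1 transcript or related genes was not tested.

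In the first, a cluster of 7 features in 6 components, 6 features were called lower. Beside this and the next counts stands a share of 6.96% called lower among all 4773 features with means of 30 to under 1000. The scarcest called member of this first cluster had a mean just under 30 and lies outside that class. Means were 39.0 to 318 in WT and 20.1 to 164 in UV-715, and log2 fold changes ran from -1.60 to -0.82. The seventh feature had 128 and 193 in WT and 71.3 and 103.9 in UV-715 and missed the threshold (limma adjusted p 0.131). Called members had means of 23.2 to 153 in EMS-25. In the second, also of 7 features in 6 components, 5 were called lower, with log2 fold changes from -1.39 to -0.47. Its most abundant feature had 781 and 790.5 in WT against 583 and 548 in UV-715, while EMS-25 had 958 and 944, so that UV-715 was the lowest and EMS-25 the highest. The remaining features of this cluster were lower in UV-715 in the mean and missed the threshold (adjusted p 0.0527 and 0.238 by limma). In the third, a cluster of 3 features in 3 components, all 3 were called lower. The steepest had 293 and 340 in WT against 30.1 and 35.8 in UV-715, while EMS-25 had 71.5 and 54.6 (log2 change of UV-715 against WT -3.23, SE 0.16, limma adjusted p 0.00126). The others had log2 fold changes of -1.95 and -1.22. None of the 14 called members of the 3 clusters passed the test when UV-715 replicate 1 or replicate 2 was omitted, 12 lost their call without the intensity trend, and 5 and 9 did so without WT replicate 1 and 2.

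**Figure D5:**
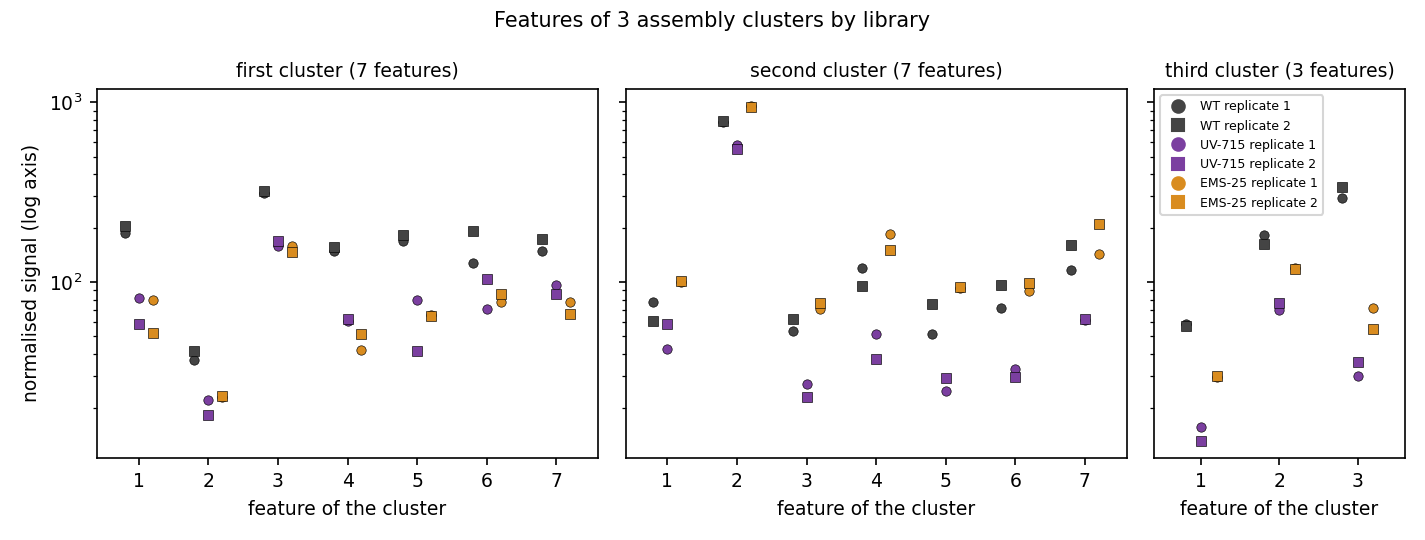
Normalised signal (log axis) by library of every feature kept in 3 assembly clusters, with WT dark, UV-715 purple and EMS-25 orange, circles for replicate 1 and squares for replicate 2. UV-715 means lie below WT means in all 17 features; EMS-25 lies near UV-715 in the first cluster and above WT in the second.

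The component of the ninth loss held 11 features, of which 5 were called lower and none higher, where 2.46% of all features tested and 13.5% of those with a mean of at least 100 were called lower. It was chosen through the ninth loss, which is itself among the 5, and its features can divide the same reads. The count is therefore a description and cannot be tested against these shares. The abundant feature described above held most of the signal, and the 4 other called features had 47.6 to 225 in WT and 13.0 to 138 in UV-715 in the mean. Another feature at a similar level had 170 and 183 in WT and 172 and 151 in UV-715 (log2 fold change -0.13, limma adjusted p 0.424), so the members did not all move alike. The sum over the component fell from 2692 and 2365 to 1211 and 987 (log2 fold change -1.21, SE 0.12, limma adjusted p 0.00461).

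Features near the limit of the comparison gave no calls. The lowest kept feature had a second highest value of 1.01 among the 4 libraries, and the highest one left out had 0.952. None of the 222 kept features whose second highest value was under 2 was called. The 1122 features left out held 0.138% of the signal of UV-715, and 313 of them were listed at 0 in all 4 libraries. A single library can still hold such a feature: the highest value among those left out was 59.6.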

How the data were processed

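Per the labels' protocols, poly(A) RNA was read on a MiSeq in pairs of 75 bp. The tools in the submitters' processing notes, listed with no roles, are edgeR, RSEM, Trimmomatic 0.32 and FastQC 0.11.5. How the features were assembled, annotated and filtered is not given in the sources used here. The deposited table holds a normalised signal with 3 decimals per feature, which looks like a TPM value that the authors scaled between libraries (the 6 sums have a geometric mean of 1000000). It is not a count, so no count model was used.

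Features with at least 1 in at least 2 of the 4 libraries of UV-715 and WT were kept. In R 4.3.3, limma 3.58.1 was run on log2 of the signal plus 1 over all 6 libraries, with strain as the only term, an intensity trend and empirical Bayes moderation (degrees of freedom: 3 residual, 2.65 prior). Two-sided p-values were adjusted by Benjamini-Hochberg over all features kept, and features under 0.05 were called. Log2 fold changes are of the signal plus 1, which understates low features, while ratios are of mean signals. Leaving out a library of a compared strain leaves 1 there, which is assumed to vary like the other groups. Relative depth came from the spacing of ratios between libraries at values under 8. Python 3.11.15, numpy 2.4.6, pandas 2.3.3 and matplotlib 3.10.9 did the rest. The fit was also run on simulated data, with noise drawn separately for each library. The correlation between same-numbered libraries was therefore not part of that run, and its outcome is not used here.

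Named with an ID are the 2 called features with the largest gain and the 2 with the largest loss in mean signal among those whose strains did not overlap. The next 8 in each direction, the 10 most abundant, the features at 0 in one strain and other members of their components are described without IDs, since the files pair no ID with a gene. The feature set and these rules were chosen with earlier results of these data known. Alternatives were other scalings, filters and pseudocounts, no trend, fewer libraries, a replicate block and a 1.5-fold threshold.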

Additional observations from a re-analysis of the deposited data

Results flagged for a closer look

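UV-715 and EMS-25 departed from WT by different amounts in 16 of the 20 largest gains and losses, by the limma test of UV-715 against EMS-25 in the same fit. Over all features tested 4.77% passed this test, and 23.7% of the 135 with a mean of at least 1000. The 20 were picked for their difference between UV-715 and WT, and the UV-715 values that picked them also enter this test, so the count describes these features and supports nothing further. For TRINITY_DN5473_c0_g1 UV-715 stood 0.62 log2 units above EMS-25, and for TRINITY_DN5968_c0_g1 1.37. For TRINITY_DN6854_c0_g1 the difference was -1.60, and for TRINITY_DN6129_c2_g1 -0.50. Among the other gains, the log2 differences were 0.61 for the third, 0.42 for the fourth, 0.99 for the fifth, 0.83 for the ninth and 0.22 for the tenth. Among the other losses they were -0.68 for the third, -0.93 for the fourth, -0.95 for the fifth, -0.99 for the seventh, -0.43 for the eighth, -1.08 for the ninth and -0.39 for the tenth. The sixth loss missed the threshold (log2 difference -0.26, adjusted p 0.0522), and so did the sixth, the seventh and the eighth gain (adjusted p 0.317 to 0.774).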

How the results depend on the processing

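With every feature of equal prior spread (no trend) there were 178 calls (122 higher, 56 lower), 71 of them among the 780, 247 component sums and 533 narrow intervals. Against a 1.5-fold threshold 80 were called (42 higher, 38 lower), all among the 780. In wild type and UV-715 alone, 489 were called (231 higher, 258 lower), 460 of them among the 780. With a library left out in turn, calls ranged from 3 to 489, higher from 3 to 305 and lower from 0 to 267 (305 and 184 without WT replicate 1), and component sums from 40 to 593. The part of fewer degrees of freedom in these counts was not tested. Other scalings, filters and pseudocounts gave 752 to 882 calls, and higher calls outnumbered lower ones with libraries scaled to the same sum (443 and 439) and without a filter (445 and 417). The median log2 fold change moved from 0.03 to at most 0.06 with scaling.

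The replicate numbers are shared between strains, but no label says that they pair libraries. Deviations of same-numbered libraries correlated by 0.05, 0.06 and 0.04 over all features, and by 0.39, 0.31 and 0.38 at means of at least 100. With a replicate block 662 features were called (285 higher, 377 lower), 586 of them among the 780, with 777 component sums.

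In the replicate 1 pair 70 features were chosen, and 236, 25, 196 and 10 at a mean of 30, a mean of 300, 1.5-fold and 4-fold. In the replicate 2 pair they were 73, and 334, 21, 229 and 11. The 13 features at 0 in a strain became 75 from a level of 10 and 5 from 50. No called feature among the 10 largest gains, the 10 largest losses, the 10 most abundant, the 13 at 0 in a strain, the 14 cluster members and the 9 component partners turned the sign of its log2 fold change in the settings run. The strains did not overlap in any called feature. An omitted library, a filter, a pseudocount or another form of the fit therefore could not turn a sign. Only the scalings could have done so.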
